A study of Mus musculus with 79 samples.

Results

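The diacylglycerol kinases are described here in ribosome-bound mRNA of mouse dopaminoceptive neurons. All 10 mouse genes of the family were looked up by symbol (Dgka, Dgkb, Dgkd, Dgke, Dgkg, Dgkh, Dgki, Dgkk, Dgkq and Dgkz), and all 10 were found among the 25899 genes of the deposited table. The family was chosen by one of its genes: Dgkk was selected on its CPM values, as a gene among those furthest higher in ventral than in dorsal striatum. The differences between dorsal and ventral striatum are therefore given as a description with no test for any of the 10 genes, and so is every other difference of Dgkk that uses striatal libraries.

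Diacylglycerol kinases phosphorylate diacylglycerol, the lipid that phospholipase C releases from phosphoinositides, to phosphatidic acid. Diacylglycerol activates protein kinase C, the Ras activators of the RasGRP family, chimaerins and Munc13 proteins, so the kinases end one lipid signal and supply another, and phosphatidic acid is a precursor for new phosphoinositides. The family is sorted into 5 types by the domains beside the shared catalytic domain. Type I (Dgka, Dgkb, Dgkg) carries calcium-binding EF hands, and type II (Dgkd, Dgkh, Dgkk) a pleckstrin homology domain. Type III (Dgke) prefers arachidonate-containing diacylglycerol, type IV (Dgki, Dgkz) has ankyrin repeats and a PDZ-binding end, and type V (Dgkq) has a Ras-association-like domain. In striatum, Dgkb is known as an abundant kinase of medium spiny neurons, and Dgkz as a binding partner of postsynaptic scaffold proteins.

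The 79 libraries were made by bacTRAP, in which ribosomes tagged with EGFP-L10a are pulled down from the cells that use a chosen promoter. The tag was driven by a bacterial artificial chromosome carrying either the Drd1a or the Drd2 promoter, in heterozygous mice on the C57BL/6J background. Each library pooled tissue of 3 mice, of both sexes where the labels state the makeup of the pool. No age or drug treatment is labelled. There were 15 libraries of D1 dorsal striatum, 16 of D2 dorsal striatum, 15 of D1 ventral striatum (punched from the nucleus accumbens), 14 of D2 ventral striatum and 19 of D1 prefrontal cortex. The tag follows the transgene, so any cell in which the promoter is active contributes, and cholinergic interneurons can use the Drd2 promoter. Pools are taken as separate samples, and the labels do not say whether the regions came from the same mice.

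Between 7.35 M and 30.8 M reads per library (M, mega) lay in listed genes, with a median of 17.5 M. Levels are in CPM (counts of a gene scaled to a common library total), and 1 read was worth 0.0124 to 0.0466 CPM. The labelled neurons matched their receptor in striatum: Drd2 ran from 337 to 1596 CPM in D2 libraries and from 2.16 to 16.2 in D1 libraries, and the 5 D1 and 5 D2 marker genes tested were called in the labelled direction without overlap in both regions. In D1 prefrontal cortex, Drd1a itself was at 9.52 to 44.8 CPM (median 16.7), overlapping the 6.86 to 40.6 CPM of the D2 dorsal libraries and below the 139 to 288 CPM of the D1 striatal libraries. Summed markers of cortical glutamatergic neurons there reached 565 to 922 CPM. Library names begin with codes whose meaning is not stated (EM, OdP, BdP, JAG), and they are spread unevenly: OdP names 8 of 16 D2 dorsal, 5 of 14 D2 ventral, 1 of 15 D1 ventral and 0 of 15 D1 dorsal libraries.

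A stretch that all members share is the glycine-rich motif of the catalytic domain, shown because similar sequence bears on whether reads of one kinase could be taken for another. Each line gives 42 bases of coding sequence from the GENCODE M21 transcript of the longest coding model, 5′ to 3′, with the 12 bases of the motif in capitals and 5 codons on each side.
Dgka: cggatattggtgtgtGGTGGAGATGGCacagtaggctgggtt
Dgkb: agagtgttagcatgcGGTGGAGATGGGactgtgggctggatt
Dgkg: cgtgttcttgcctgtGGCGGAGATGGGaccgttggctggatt
Dgkd: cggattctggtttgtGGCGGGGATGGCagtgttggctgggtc
Dgkh: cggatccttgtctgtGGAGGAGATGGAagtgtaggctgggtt
Dgkk: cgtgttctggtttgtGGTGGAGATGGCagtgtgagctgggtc
Dgke: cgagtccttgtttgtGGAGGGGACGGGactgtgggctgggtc
Dgki: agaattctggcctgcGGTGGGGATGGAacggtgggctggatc
Dgkz: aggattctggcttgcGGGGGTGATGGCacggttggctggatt
Dgkq: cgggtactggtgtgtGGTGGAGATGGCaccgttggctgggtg
Among the 45 pairs of genes, between 5 and 16 of these 42 bases differed, with the fewest between Dgka and Dgkq. Over whole transcripts, 0 stretches of 50 bases, the read length, were shared between any members, so exact reads can be told apart within the family.

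The genes lie apart in the genome. In GRCm38, Dgkk spans chrX:6779306-6948363 on the plus strand and is the one X-linked member. Dgkb spans chr12:37817726-38634239 on the plus strand, a gene of 816514 bases. Dgkz lies at chr2:91932824-91975864 (minus strand), Dgki at chr6:36846022-37300184 (minus), Dgkd at chr1:87853287-87945180 (plus) and Dgkh at chr14:78558750-78732776 (minus). Dgkg lies at chr16:22468461-22657221 (minus), Dgke at chr11:89035179-89066850 (minus), Dgka at chr10:128720134-128744855 (minus) and Dgkq at chr5:108646693-108669672 (minus). The library kit described does not mark strand. Dgkq shares 2090 exonic bases with Tmem175 on the opposite strand, and 26.7% of its 50-base stretches occur in other transcripts, so its values are uncertain. For Dgkh the share was 4.58%, mostly with the overlapping model Gm48998, and for the other 8 genes it was at most 3.27%.

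**Figure D1:**
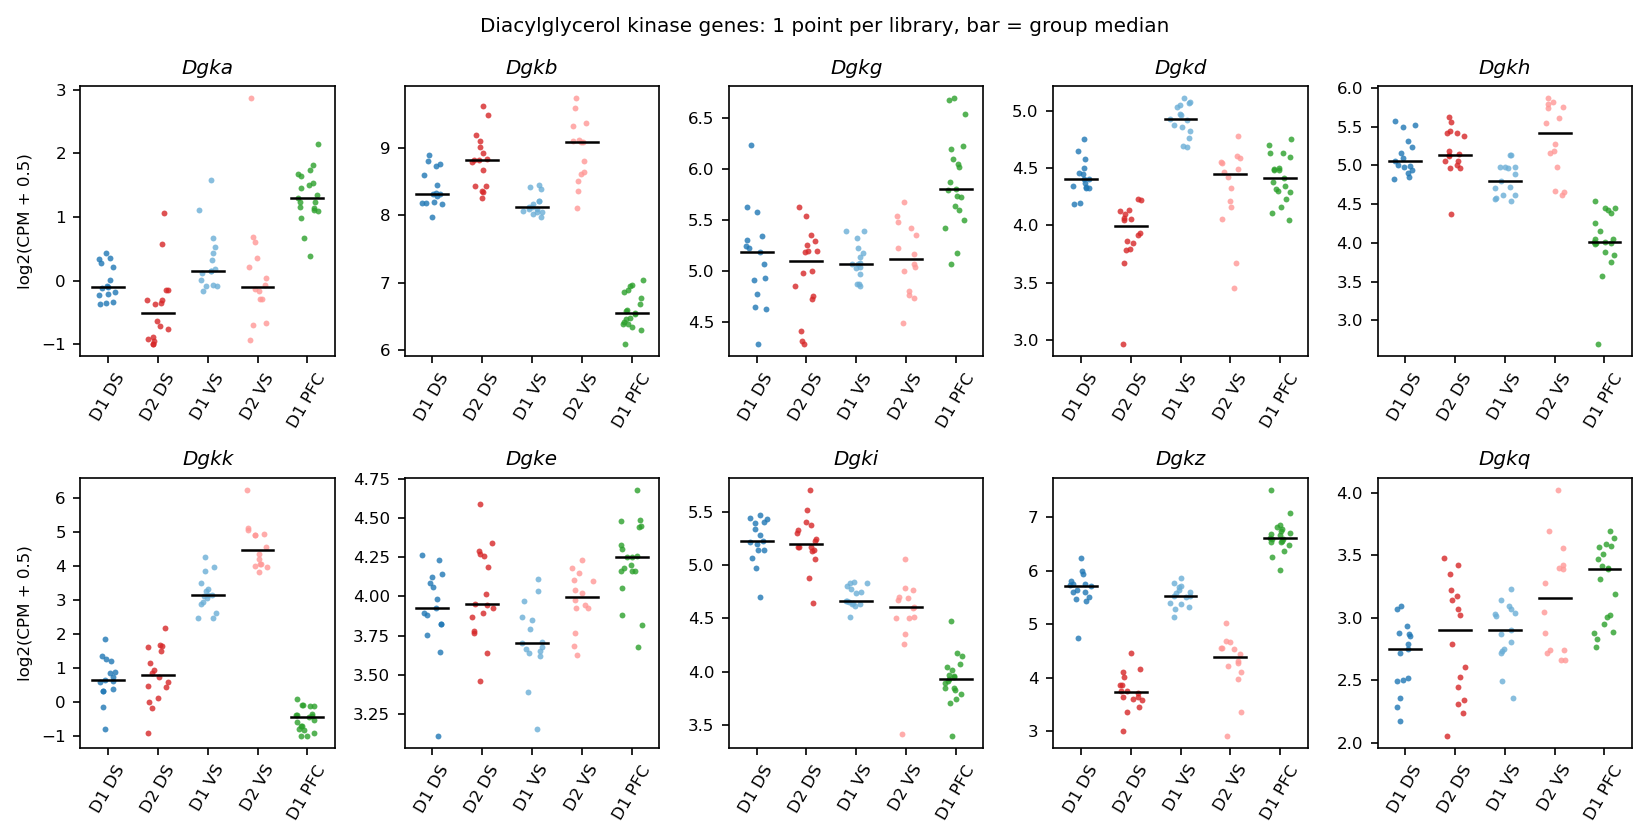
Levels of the 10 diacylglycerol kinase genes on the log2(CPM + 0.5) scale, 1 point per library and a bar at each group's median; DS is dorsal striatum, VS ventral striatum and PFC prefrontal cortex, with 15, 16, 15, 14 and 19 libraries from left to right. Dgkk is high in both ventral groups, Dgkz is low in both D2 groups, and Dgkb is low in cortex.

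The family's makeup differed between groups. Levels of different genes are compared here per kilobase of exon (all exons of a gene merged), as shares of the family's summed CPM per kilobase. Dgkb held the largest median share in each striatal group: 52.0% in D1 dorsal, 66.3% in D2 dorsal, 50.3% in D1 ventral and 64.5% in D2 ventral striatum. In D1 prefrontal cortex Dgkz came first with a median of 38.7% (25.4% to 46.9%), and Dgkb had 19.9% (14.8% to 26.5%). Dgkz was next after Dgkb in D1 striatum, with 14.6% dorsally and 14.4% ventrally, against 3.70% and 4.61% in D2. Using the longest coding transcript in place of merged exons left Dgkb first in striatum, but in cortex put Dgkz at 31.1% and Dgkb at 30.7%, which is within their spread.

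**Figure D2:**
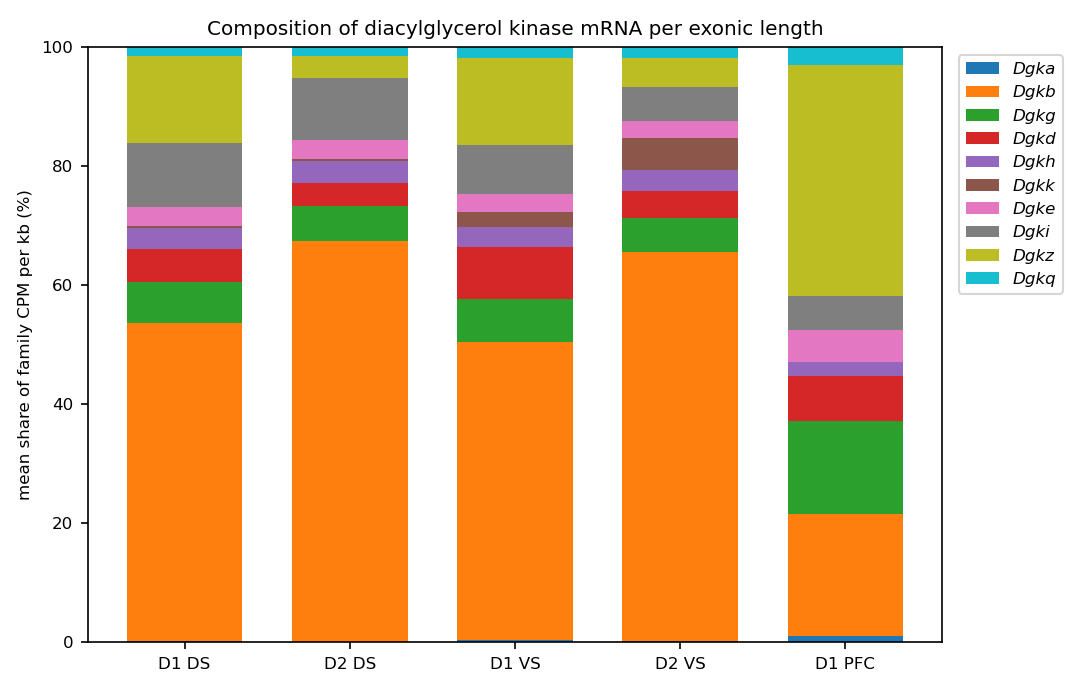
Mean share of each kinase gene in the family's summed CPM per kilobase of exon (vertical axis, percent), stacked for the 5 groups. The mean Dgkb share is 67.3% in D2 dorsal striatum and 20.5% in D1 prefrontal cortex, where the mean Dgkz share is 38.7%.

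Dgkk, a type II kinase whose mRNA is known as a target of the fragile X protein FMRP, differed most between group medians as a ratio, which the choice of the gene by its ventral levels favours. In D2 ventral striatum it was at 13.8 to 75.5 CPM (median 21.6), and in D1 ventral striatum at 5.01 to 18.8 CPM (median 8.30). Within D1 ventral striatum it moved with library code: the 11 EM libraries were at 5.01 to 10.9 CPM, the 1 OdP library at 9.42, the 2 BdP libraries at 15.3 and 18.8 and the 1 JAG library at 13.9. The overlap with D2 ventral libraries (lowest 13.8 CPM) comes from those BdP and JAG libraries. Dorsally it was at 0.0303 to 4.00 CPM in D2 (median 1.22) and 0.0680 to 3.12 CPM in D1 (median 1.05). In D1 prefrontal cortex it was at 0 to 0.554 CPM (median 0.228), which is 0 to 30 reads, with 2 libraries at 0. Every ventral library lay above every dorsal library of both receptors, and the dorsal and cortical ranges overlapped. The highest D2 ventral library, replicate 9, stood apart at 75.5 CPM, and the next reached 34.3. That library also had the group's highest sums of oligodendrocyte markers (196 CPM, group median 80.5) and GABA interneuron markers (33.9 CPM, group median 20.0), and the group's lowest Drd2 (337 CPM, group median 625), and their part in its Dgkk level was not tested.

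On the log2(CPM + 0.5) scale, which understates the change of low genes, Dgkk was lower in dorsal than ventral striatum by -2.53 in D1 (SE 0.20, 95% interval -2.94 to -2.12) and by -3.80 in D2 (SE 0.25, -4.31 to -3.28). These values chose the gene. They place it 15th lowest of 11332 genes in D1 and 3rd lowest of 11187 in D2. Without replicate 9 the D2 value was -3.67, and it was -3.82 over the EM libraries alone and -3.70 over the OdP libraries alone. The cortex-minus-ventral difference was -3.70 (-3.99 to -3.41), also a description. Between neurons the question was whether the 2 receptor types differ. In ventral striatum the D1 minus D2 difference of Dgkk was -1.40 (SE 0.20), with 8 of 14 D2 libraries above every D1 library and 12 of 15 D1 libraries below every D2 library. It was -1.66 over EM libraries alone and -1.58 without the BdP and JAG libraries. It is given as a description with no test, since it uses libraries on which the gene was chosen. With the percentage of reads lying in genes as a covariate it was -0.87, the smallest over its 15 alternatives. In dorsal striatum the difference, also a description, was -0.13 (-0.64 to 0.38). Fewer cells with the mRNA and less mRNA per cell cannot be told apart in these bulk libraries, here or for the other genes.

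Dgkz, the type IV kinase that dampens RasGRP signalling and sits at postsynaptic scaffolds, was higher in D1 than in D2 neurons in both striatal regions. In dorsal striatum it was at 26.1 to 75.2 CPM in D1 (median 51.8) and at 7.48 to 21.5 CPM in D2 (median 12.8). In ventral striatum it was at 34.7 to 57.9 CPM in D1 (median 45.8) and at 7.04 to 31.98 CPM in D2 (median 20.3). In D1 prefrontal cortex it reached 64.2 to 182 CPM (median 97.1). The D1 and D2 ranges did not overlap in either striatal region. D1 exceeded D2 by 1.91 dorsally (SE 0.12, 3.77-fold, limma adjusted p = 2.08e-15) and by 1.27 ventrally (SE 0.14, 2.41-fold, adjusted p = 1.23e-08). It was called under each of the 13 dorsal and 15 ventral alternatives. These are not all separate checks: dorsally only the EM code occurs in both receptors. The difference with library code as a covariate is therefore that of the EM libraries alone.

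The receptor difference of Dgkz was larger in dorsal than in ventral striatum by 0.64 (SE 0.19, limma adjusted p = 0.0461), near the threshold of 0.05. It lost its call under 6 of 15 alternatives, among them leaving out D2 ventral replicate 2 (0.61, adjusted p = 0.0701), the library of that group with the highest cortical markers. In the same interaction test all 5 D2 neuron markers tested were called (median -1.93) and 2 of 4 GABA interneuron markers were called (median 0.995), and their part in the result was not tested. As a description, Dgkz in D2 was lower in dorsal than ventral striatum by -0.51 (-0.83 to -0.19), whereas in D1 the difference was 0.13 (-0.07 to 0.33).

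Cortical markers moved with Dgkz. The sum of 5 markers of cortical glutamatergic neurons was 33.2 to 140 CPM in D1 dorsal libraries against 1.56 to 37.1 in D2 dorsal libraries, and 18.1 to 115 in D1 ventral against 3.92 to 84.5 in D2 ventral libraries. All 5 markers were called higher in D1 in both regions, and none had a median of 0 in any group. GABA interneuron markers were also higher in D1 dorsally (13.6 to 57.7 against 3.32 to 24.5 CPM, 3 of 4 tested called), and the part of both in the Dgkz difference was not tested. With group means removed, the correlation of Dgkz with Slc17a7, the vesicular glutamate transporter of cortical neurons, over the 79 libraries was 0.36, a description in which libraries share their dissection and depth.

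**Figure D3:**
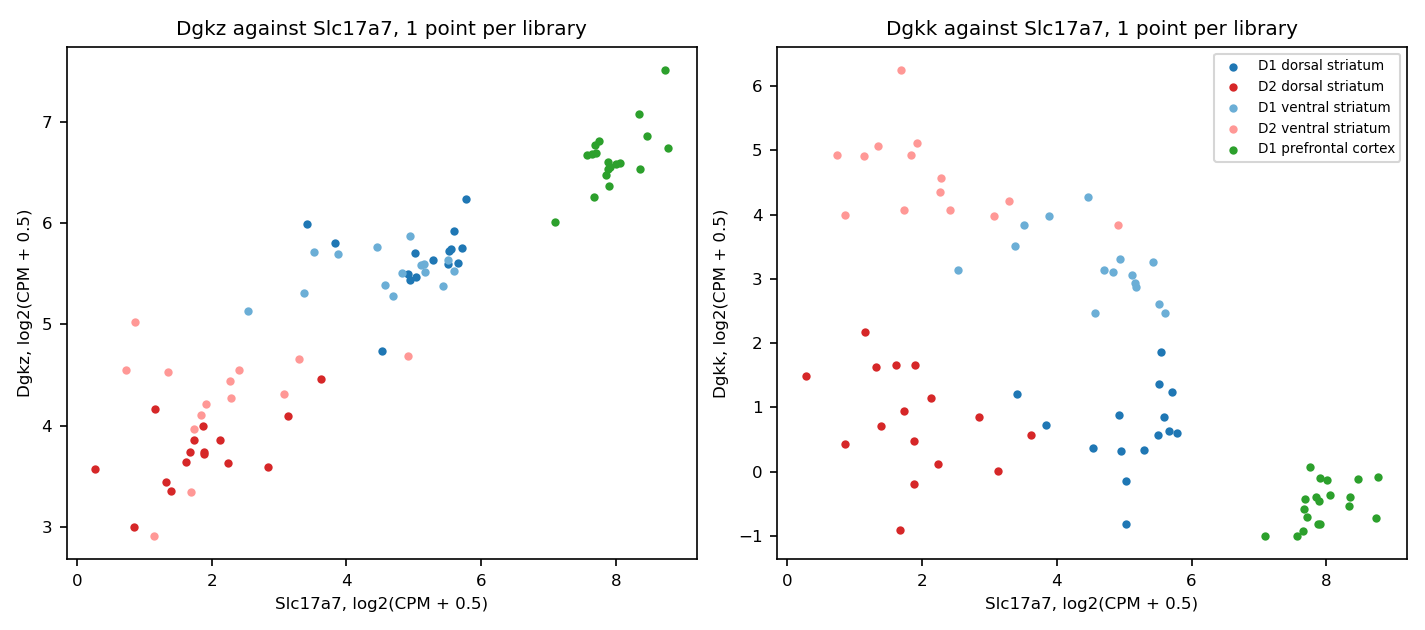
Dgkz (left) and Dgkk (right) against the cortical marker Slc17a7, both on the log2(CPM + 0.5) scale, 1 point per library coloured by group. In striatum D1 libraries lie higher than D2 libraries of the same region for Dgkz and mostly for Slc17a7, and the highest Dgkk points are D2 ventral libraries.

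Dgkb, the calcium-sensitive type I kinase of medium spiny neurons, was higher in all striatal libraries than in cortex. It was at 275 to 848 CPM in D2 ventral (median 540) and 304 to 783 in D2 dorsal striatum (median 450). In D1 it was at 251 to 476 CPM dorsally (median 319) and 251 to 347 ventrally (median 276). In D1 prefrontal cortex it was at 67.6 to 131 CPM (median 93.0), below every striatal library. It was lower in D1 than D2 by -0.80 ventrally (SE 0.12, limma adjusted p = 4.13e-06) and by -0.40 dorsally (SE 0.12, adjusted p = 0.0136), with overlapping ranges in both regions.

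The size of the Dgkb difference moved with library code and with the percentage of reads lying in genes. Within D2 dorsal striatum the 8 EM libraries were at 304 to 486 CPM (median 344) and the 8 OdP libraries at 442 to 783 (median 529). Within D2 ventral striatum the 8 EM libraries were at 275 to 549 CPM (median 394) and the 5 OdP libraries at 541 to 768 (median 638). The 1 BdP library of that group was its highest, at 848 CPM. In D1 ventral striatum the 2 BdP libraries (334 and 342 CPM) and the 1 JAG library (347) lay above all 11 EM libraries (251 to 297). In D1 dorsal striatum the 3 BdP libraries were at 386 to 444 CPM, the 1 JAG library at 421 and the 11 EM libraries at 251 to 476. Over EM libraries alone the dorsal difference was -0.23 (adjusted p = 0.219) and the ventral one -0.57 (adjusted p = 0.000217). With that percentage as a covariate they were -0.25 (adjusted p = 0.0669) and -0.47 (adjusted p = 0.0314). No D1 dorsal library carries the OdP code, so within that code the dorsal comparison cannot be made. With group means removed, Dgkb correlated with that percentage at 0.60 over the 79 libraries, as did Dgkg (0.71) and Dgkq (0.63).

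The other type II genes differed from Dgkk and from each other. Dgkd was higher in D1 than D2 by 0.50 dorsally (SE 0.09, limma adjusted p = 0.000125) and by 0.61 ventrally (SE 0.11, adjusted p = 2.13e-05). It was highest in D1 ventral striatum (25.2 to 34.1 CPM, median 29.9) and lowest in D2 dorsal striatum (7.29 to 18.3 CPM, median 15.4). Both differences kept their call under all alternatives run. Dgkh, its closest relative in domain makeup, went the other way ventrally: it was at 24.0 to 57.9 CPM in D2 (median 42.3) and 22.7 to 34.8 CPM in D1 (median 27.4). D1 minus D2 was -0.52 there (SE 0.13, adjusted p = 0.00116). It lost its call over EM libraries alone (-0.27, adjusted p = 0.112) and with the percentage of reads in genes as a covariate (adjusted p = 0.0630). Dorsally the Dgkh difference was -0.05 (-0.25 to 0.16, adjusted p = 0.760).

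Beside the genes higher in D2 (Dgkb in both regions, and Dgkk, Dgkh and Dgke ventrally), markers of other cells were higher in D2 as well. The summed cholinergic interneuron markers had medians of 6.32 against 0.751 CPM dorsally and 12.2 against 1.34 CPM ventrally, and the oligodendrocyte markers 110 against 73.5 and 80.5 against 46.7. Lateral septum markers had medians of 7.82 against 4.78 CPM dorsally (1 of 2 tested called) and 12.4 against 6.73 CPM ventrally (2 of 3 called). Their part in these results was not tested.

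Among the remaining genes, Dgke, the only type III kinase, was lower in D1 than D2 ventrally by -0.25 (SE 0.09, limma adjusted p = 0.0217). That call was lost after scaling to reads in genes (-0.15, adjusted p = 0.141) and with that covariate (-0.02, adjusted p = 0.926). Dgki, the type IV relative of Dgkz, did not pass the test between receptors: its difference was 0.01 dorsally (-0.17 to 0.19) and 0.18 ventrally (-0.03 to 0.39). For Dgkg the values were 0.13 (-0.17 to 0.44) and -0.03 (-0.23 to 0.18), and for Dgkq -0.14 (-0.42 to 0.14) and -0.27 (-0.54 to -0.01), the last with adjusted p = 0.0830. Dgka, known for its role in T cell anergy, had medians of 0.208 to 0.611 CPM in the striatal groups and did not pass the filter for either receptor comparison.

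Between D1 and D2, leaving out Dgkk, 3 of the 8 other genes that passed the filter were called in dorsal striatum, where 25.9% of 11090 genes were, and 5 of 8 in ventral striatum, where 47.7% of 11410 were. Dorsally 2 were higher and 1 lower in D1, beside 12.8% and 13% of all genes, and ventrally 2 were higher and 3 lower, beside 24.1% and 23.6%. The ventral background moved with the processing. With the percentage of reads in genes as a covariate, 1218 of the 11410 genes were called ventrally, against 5443 without it. That percentage differed between the receptors there (medians 34.7 in D1 and 38.2 in D2), so the covariate overlaps with the comparison. Scaled to reads in genes, 3702 were higher and 1885 lower, against 2751 and 2692, and the median over all genes moved from 0.02 to 0.14. Groups that do not overlap, as for Dgkz, occurred in 1.18% and 1.34% of genes. In the interaction test, which asks whether the receptor difference differs between regions, 1 of the 8 members tested was called (Dgkz), beside 2.64% of 11873 genes. The interaction of Dgkh was 0.47 (adjusted p = 0.109) and that of Dgkb 0.40 (adjusted p = 0.260). That of Dgkk, a description, was 1.27 (0.60 to 1.93).

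**Figure D4:**
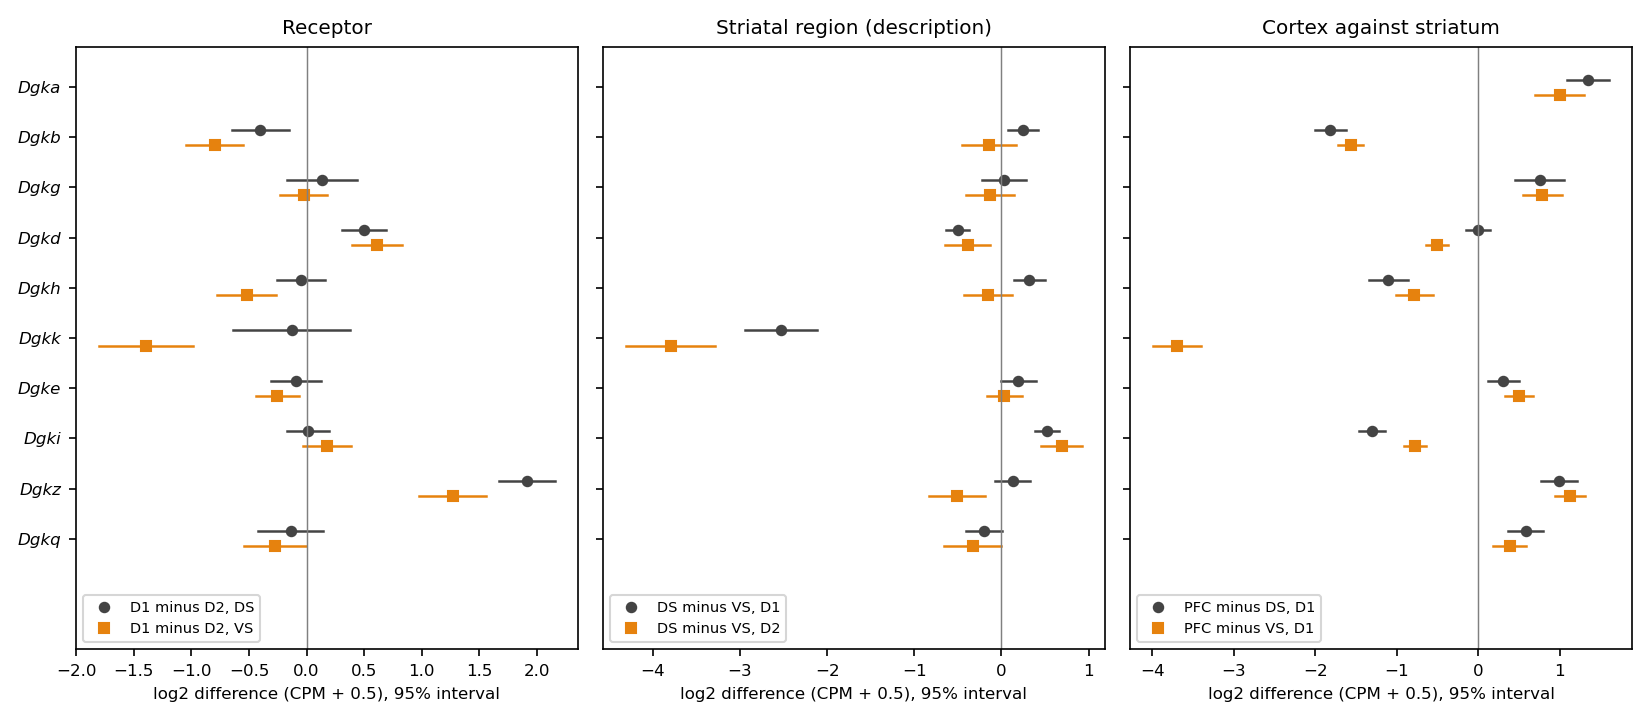
Log2 differences with 95% intervals for the 10 genes, on the log2(CPM + 0.5) scale: D1 minus D2 (left), dorsal minus ventral striatum (middle, description only) and prefrontal cortex minus striatum in D1 (right). Genes that did not pass the filter have no point. Dgkz lies furthest right in the left panel (1.91 and 1.27) and Dgkk furthest left in the middle panel (-2.53 and -3.80).

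Between dorsal and ventral striatum the members other than Dgkk differed less, and the values are a description. The median over all genes was -0.12 in both receptor types, so a member near that value sat with the bulk of genes. With median-ratio scaling that median was -0.01 in D1 and -1.02e-05 in D2. Dgki was higher dorsally in both, by 0.52 in D1 (0.39 to 0.66) and by 0.69 in D2 (0.45 to 0.92). It was at 25.6 to 44.0 CPM in D1 dorsal and 22.4 to 28.3 in D1 ventral libraries, and at 24.6 to 51.9 and 10.1 to 32.8 in the D2 libraries. Dgkd was lower dorsally by -0.50 in D1 (-0.63 to -0.37) and by -0.39 in D2 (-0.64 to -0.13). Dgkb and Dgkh were higher dorsally in D1, by 0.25 (0.08 to 0.42) and 0.32 (0.14 to 0.49), and had intervals spanning 0 in D2. By the call rule used elsewhere, 5 of 9 lay past the threshold in D1 and 4 of 9 in D2, beside 34.6% and 28.5% of all genes, counts that include Dgkk and from which nothing is read. Markers moved with these differences. Those of striatal projection neurons were called higher dorsally for 5 of 6 in D1 and 6 of 6 in D2, with sums of 1951 to 3795 against 1639 to 2161 CPM in D1 and 2640 to 4663 against 1686 to 2810 CPM in D2. D2 neuron markers were called for 5 of 5 in both, lower dorsally in D1 (40.1 to 101 against 107 to 249 CPM) and higher dorsally in D2 (2585 to 4525 against 1545 to 2758 CPM). Of 4 GABA interneuron markers, 3 were called higher and 1 lower dorsally in D1 and 3 lower in D2. Oligodendrocyte markers were called higher dorsally for 3 of 3 in D1 and 1 of 5 in D2. Cholinergic interneuron markers were called lower dorsally for 2 of 3 in D2 (medians of the sums 6.32 and 12.2 CPM), and 0 were tested in D1. Cortical glutamatergic markers were called higher dorsally for 2 of 5 in D1 and 0 of 3 in D2. Lateral septum markers were called lower dorsally for 0 of 1 in D1 and 1 of 3 in D2. Of choroid plexus markers, 1 of 1 was called lower in D1, and 1 higher and 1 lower in D2. The part of these cells was not tested. Groups did not overlap for Dgkk alone, which was chosen on this contrast, so nothing is read from that. Of all genes, 2.65% showed no overlap in D1 and 1.46% in D2.

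Between prefrontal cortex and striatum in D1 libraries, the family split in both directions. Both comparisons share the 19 cortical libraries. They also set different neurons side by side: 6 markers of striatal projection neurons were summed at 153 to 483 CPM in cortex and at 1639 to 3795 CPM in D1 striatum. Dgka is left out of the counts, since it passed the filter through its cortical level: it reached 1 CPM in 18 of 19 cortical, 0 of 15 D1 dorsal and 3 of 15 D1 ventral libraries. In cortex 7 of the 8 other genes tested were called against dorsal striatum (Dgkk did not pass the filter), where 54.8% of 11654 genes were. Against ventral striatum 8 of 8 were called (Dgkk was not tested), where 62.8% of 11749 genes were. Against dorsal striatum 4 were higher and 3 lower in cortex, beside 32.3% and 22.5% of all genes (3766 and 2622, and 3119 and 3472 with edgeR on the recovered reads). Against ventral striatum 4 were higher and 4 lower, beside 27.7% and 35.1%.

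Dgkz was higher in cortex by 0.99 against dorsal (SE 0.11, limma adjusted p = 1.67e-10) and by 1.12 against ventral striatum (SE 0.09, adjusted p = 2.82e-14). Dgkg, a type I kinase, was at 33.2 to 103 CPM in cortex (median 55.4), while its medians in the 4 striatal groups were 33.1 to 35.9. Its differences were 0.75 (adjusted p = 4.03e-05) and 0.79 (adjusted p = 2.15e-07). Dgka had medians of 0.436 and 0.611 CPM in D1 striatum and 1.95 CPM in cortex (0.807 to 3.93), with differences of 1.34 and 1.00, given as a description. Dgkq (0.58 and 0.38) and Dgke (0.31 and 0.50) were also called higher in cortex in both comparisons. Markers of astrocytes and GABA interneurons moved with these genes: their sums had medians of 25.1 and 150 CPM in cortex, and of 4.04 to 6.16 and 17.4 to 29.4 CPM in D1 striatum, and their part in the result was not tested.

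Dgkb was lower in cortex by -1.82 against dorsal (SE 0.09, limma adjusted p = 4.06e-20) and by -1.56 against ventral striatum (SE 0.08, adjusted p = 4.27e-21), with no overlap. Dgki was at 10.0 to 21.8 CPM in cortex (median 14.7), below every D1 striatal library, with differences of -1.30 (adjusted p = 1.56e-17) and -0.78 (adjusted p = 3.37e-13). Dgkh was at 5.96 to 22.8 CPM in cortex (median 15.6), with differences of -1.10 (adjusted p = 1.17e-10) and -0.79 (adjusted p = 8.99e-08). Dgkd was lower in cortex than in ventral striatum by -0.51 (adjusted p = 1.56e-08), and against dorsal striatum its difference was -0.01 (-0.15 to 0.14, adjusted p = 0.952). Groups did not overlap for 3 of the genes against dorsal striatum (Dgkb, Dgkh, Dgki), where 10.5% of all genes showed this. Against ventral striatum the ranges of Dgkb, Dgki and Dgkz did not overlap, beside 12.6% of all genes. Those of Dgkk did not overlap either, a description only, since it was chosen on its ventral values. Each cortical call of these genes, Dgkk and Dgka aside, held under the 13 alternatives run for it. Against dorsal striatum, EM libraries alone and leaving out BdP and JAG use the same libraries and are the same fit.

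Genes upstream of the kinases are the Gq proteins and phospholipases C, which make diacylglycerol. Of 10 tested, 1 was called between D1 and D2 in dorsal striatum and 7 in ventral striatum (4 higher and 3 lower in D1), beside 25.9% and 47.7% of all genes. Plcb1, a phospholipase C that Gq proteins activate, was lower in D1 by -0.37 dorsally (limma adjusted p = 0.00943) and by -0.30 ventrally (adjusted p = 0.0130). Against cortex, Plcb1 was lower in cortex by -0.998 relative to dorsal striatum, whereas Plcb4 was higher by 2.07 (adjusted p = 1.92e-16). Plcb1 was also higher in dorsal than ventral striatum, by 0.65 in D1 and 0.71 in D2. Of the 11 genes tested in each cortical comparison, 7 and 9 were called, beside 54.8% and 62.8% of all genes.

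Diacylglycerol effectors, the proteins the lipid activates, were called for 9 of 19 tested in dorsal striatum (5 higher and 4 lower in D1) and for 12 of 19 in ventral striatum (7 and 5), beside the same 25.9% and 47.7%. Prkd1, protein kinase D1, was lower in D1 by -1.65 dorsally (limma adjusted p = 1.66e-13) and by -1.59 ventrally, without overlap. Chn2, which encodes beta-chimaerin, a Rac GTPase-activating protein, had medians of 22.4 and 24.6 CPM in D1 and D2 dorsal libraries and 97.5 and 80.0 CPM in the ventral ones. It was lower dorsally by -1.97 in D1 (adjusted p = 5.73e-17) and by -1.68 in D2 (adjusted p = 1.08e-15), without overlap. In cortex 17 of 20 effectors were called against dorsal striatum (54.8% of all genes), 8 higher and 9 lower, with Prkch at -5.24 and the Rap activator Rasgrp2 at -3.65.

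Enzymes that make or use diacylglycerol by other routes were called for 5 of 11 in each region between D1 and D2 (all genes: 25.9% and 47.7%). Dagla, which turns diacylglycerol into the endocannabinoid 2-arachidonoylglycerol, was higher in dorsal than ventral striatum by 0.84 in D1 (limma adjusted p = 5.56e-05) and by 1.03 in D2 (adjusted p = 8.81e-05). Of the genes that carry phosphatidic acid back to phosphoinositides, 6 of 16 were called between D1 and D2 dorsally (5 higher and 1 lower in D1) and 11 of 17 ventrally (9 and 2), beside 25.9% and 47.7% of all genes. Pitpnm3, a gene of that list, was higher in D1 by 1.85 dorsally (27.1 ± 6.93 against 7.18 ± 2.36 CPM, SD, adjusted p = 2.55e-13) and by 1.32 ventrally. In cortex 13 of 17 of this list were called against dorsal striatum (54.8% of all genes), 11 higher and 2 lower, and the list's median was 0.44 beside 0.05 over all genes.

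The same lists were counted in the other comparisons. Against ventral striatum, cortex had 9 of 11 Gq and phospholipase C genes called (4 higher and 5 lower), 18 of 21 effectors (10 and 8), 8 of 12 other enzymes (6 and 2) and 14 of 17 resynthesis genes (10 and 4), where 62.8% of all genes were called. Between dorsal and ventral striatum, the calls in D1 and D2 were 6 of 11 and 3 of 10 for the first list and 13 of 19 and 10 of 19 for the effectors. They were 5 of 12 and 5 of 11 for the other enzymes, and 7 of 17 and 4 of 17 for the resynthesis genes, beside 34.6% of all genes in D1 and 28.5% in D2.

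Some genes followed single kinases closely over the 79 libraries. The 3 genes with the highest Pearson correlation to each member were taken, on the log2(CPM + 0.5) scale among 12333 genes, as a description in which the 5 groups share in the likeness. Over the 60 striatal libraries alone, 0 of these 3 stayed among the top 3 for 8 of the 10 members, and 1 for Dgkg and Dgki. For Dgkk these were Chn2 (0.90), Ddc (0.89) and Peg10 (0.89), and with group means removed 0.29, 0.25 and 0.38. For Dgkb they were Mei4 (0.97), Osbpl8 (0.96) and Gnal (0.96), which kept 0.76, 0.67 and 0.77. For Dgkz they were Prkar1b (0.93), Ube2ql1 (0.93) and Baalc (0.92), with 0.49, 0.18 and 0.35. Dgkg was most like Syn1 (0.89), Snap25 (0.88) and Klf7 (0.86), which kept 0.82, 0.79 and 0.81. Actn2 led for Dgki (0.93) and Celf1 for Dgkh (0.87). Within the family, Dgkb and Dgkh were the most alike pair (0.83, and 0.33 with group means removed). With group means removed the most alike pairs were Dgkg with Dgkq (0.67), Dgkb with Dgkg (0.53) and Dgkh with Dgki (0.53).

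The pools held either 2 males and 1 female or 1 male and 2 females where the labels state it (44 and 33 libraries). With group as a term, 0 of the 10 members were called by limma between these pools, beside 8 of 12290 genes (0.0651%), and 2 members had an unadjusted p under 0.05 (Dgkg and Dgkz). The X-linked Dgkk differed by 0.04 (-0.23 to 0.32).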

How the data were processed

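The authors deposited one table of CPM values for 79 libraries of ribosome-bound polyA RNA. Per the labels' protocols, cDNA was amplified and read as 50-base pairs. Per the submitters' processing notes, Trim Galore 0.4.2, cutadapt 1.9.1, FastQC, HISAT2 and GRCm38 were used. The counting program, annotation and filters are not given in the sources used here. CPM values were whole multiples of 1 read for 100% of values above 0 (within 0.01 read). Listed genes took 31.0% to 40.2% of the authors' total. Without molecular identifiers, reads are not independent molecules.

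Groups come from the labels, and each column was matched by name (0 columns left without a sample). Differences were fitted with limma 3.58.1 (R 4.3.3, trended) on log2(CPM + 0.5) over all genes with at least 1 CPM in as many libraries as the smaller group holds. Genes were called at a Benjamini-Hochberg adjusted p under 0.05 over all genes tested. The fit was tested on simulated data. The receptor differences of Dgkk and the cortical differences of Dgka, planned as tests, are given as descriptions. edgeR 4.0.16 and DESeq2 1.42.0 on the recovered reads were alternatives. The members, pathway lists and marker lists were chosen with earlier results of these data known. Named pathway genes are among the 2 largest called differences in each direction per list and comparison where the higher group averaged 5 CPM or more. Sequences and positions are from GENCODE M21 (GRCm38).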

Additional observations from a re-analysis of the deposited data

Results flagged for a closer look

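A test of the difference between differences called 2 of the 68 kinases and pathway-list genes tested (2.94%), which is near the 2.64% of all 11873 genes, so the number of calls is not a result about them. The values are D1 minus D2 in dorsal striatum less D1 minus D2 in ventral striatum. For Dgkz the value was 0.64 (SE 0.19, limma adjusted p = 0.0461), with D1 above D2 in both regions and more so dorsally. For Chn1, the alpha-chimaerin among the diacylglycerol effectors, it was 0.41 (SE 0.09, adjusted p = 0.00463). Chn1 was at a mean of 760 ± 93.5 CPM (SD) in D1 and 649 ± 57.6 in D2 dorsal libraries, and at 624 ± 67.9 in D1 and 708 ± 70.7 in D2 ventral libraries.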

How the results depend on the processing

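Members called in a test kept their direction under all alternatives run. The count of members that dorsal against ventral striatum would call was 5 in D1 and 4 in D2; it was 8 in D1 with array weights, and 2 in D2 with median-ratio scaling or quantile normalization. These counts include Dgkk and use the contrast that chose it, so nothing about stability is read from them. Members called in the interaction numbered 1; the number was 0 with a pseudocount of 0.1, no filter, scaling to reads in genes, quantile normalization, EM libraries alone, or without D2 ventral striatum replicate 2, 2 with array weights and 3 with title code as a covariate. The cause was not tested. The alternatives that leave out D2 ventral replicate 2 or 9, or the BdP and JAG libraries, or keep OdP alone, were chosen after seeing the data. Over all genes, calls between D1 and D2 dorsally numbered 2871, and 1389 over EM alone, 1658 with title code and 4806 with array weights; in the interaction 313, and 480 with title code and 821 with array weights; in D2 dorsal against ventral 3189, and 2074 over OdP alone. Differences that changed sign were all of uncalled members. Between D1 and D2 dorsally, Dgkh was 0.013 scaled to reads in genes and 0.038 in EM libraries alone and with title code. Dgki was -0.036 with the percentage of reads in genes as a covariate, -0.012 with edgeR, -0.0082 with DESeq2, -0.031 with array weights and -0.048 without BdP and JAG libraries. Dgkq was 0.014 in EM alone and with title code, and 0.013 with the percentage covariate. Ventrally, Dgkg was 0.086 scaled to reads in genes, 0.029 quantile-normalized, 0.065 in EM alone, 0.043 with title code and 0.23 with the percentage covariate, and Dgkq was 0.10 with the percentage covariate. In cortex against dorsal striatum, Dgkd was 0.021 in EM alone and without BdP and JAG, and 0.048 with array weights. In the interaction with the percentage covariate, Dgkg was -0.021 and Dgkq -0.022. Of the 3 genes most like a member, the number that stayed in the top 3 by Spearman correlation was 0 for Dgkk and 1 to 3 for the others, and over the 60 striatal libraries it was 0 for 8 members and 1 for Dgkg and Dgki. No paired analysis was run, because the groups compared share fewer than 2 title numbers under one code, and the labels tie no number to shared mice. Consecutive title numbers were not taken as sets. Depth limits Dgkk in cortex (at most 30 reads) and Dgka in D2 dorsal striatum (0 to 100 reads).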

Other observations

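Single libraries stood out for some kinases. In D2 ventral striatum, replicate 14 had 6.77 CPM of Dgka (414 reads), while the next of the 14 libraries had 1.10 CPM. Replicate 9 of that group, the highest for Dgkk, had the lowest Dgki of its group (10.1 CPM, group median 23.8), and its Dgkz was at 9.70 CPM (group median 20.3).

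Dgkz moved with library code in the D1 groups. In D1 dorsal striatum the 11 EM libraries were at 26.1 to 55.4 CPM, the 3 BdP libraries at 60.3, 63.2 and 75.2 and the 1 JAG library at 51.8. No D2 dorsal library carries the BdP or JAG code. In D1 ventral striatum the 11 EM libraries were at 34.7 to 49.3 CPM. The 2 BdP libraries there were at 51.4 and 53.8, the 1 JAG library at 51.9 and the 1 OdP library at 57.9. In D1 prefrontal cortex the 15 EM libraries were at 64.2 to 112 CPM (median 95.5), the 3 BdP libraries at 107, 116 and 134 CPM, and the 1 JAG library at 182 CPM, the highest of the 19. The cortical EM libraries alone still lay above every D1 ventral library (at most 57.9 CPM).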
